A study of Mus musculus with 8 samples.

Results

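Pdcd1, Cd274 and Pdcd1lg2, the genes of the PD-1 receptor and of its ligands PD-L1 and PD-L2, were followed in molecule tables of a 100-gene panel, of which they are 3 genes. The molecules were chosen by their target name alone. They were then counted per section, per treatment and per square bin of 360 pixels, and their distances to one another and to other targets were measured. Each of the 8 tables lists single RNA molecules with their positions in 1 section of a mouse brain hemisphere implanted with GL261, a mouse glioma line, read out by Resolve single-molecule fluorescence in situ hybridization. All mice carried the implant, received 4 intracranial treatments and were killed on day 21. They were given CpG-STAT3ASO together with anti-PD1 (the combination), CpG-STAT3ASO alone, anti-PD1 alone or PBS, with 2 sections per treatment. CpG-STAT3ASO links an antisense oligonucleotide against Stat3 to a CpG DNA, and anti-PD1 is an antibody to the receptor itself. No mouse strain or age is labelled, nor whether the 2 sections of a treatment are from different animals; the p values thus speak for the spread among the 8 sections alone.

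PD-1 is an inhibitory receptor that T cells put on their surface after activation. Binding of PD-L1 or PD-L2 recruits phosphatases to its cytoplasmic tail and dampens signalling from the T cell receptor and CD28. PD-L1 is made by many cell types and is induced by interferons, while PD-L2 is mainly made by dendritic cells and macrophages. The ligand genes lie side by side on mouse chromosome 19, whereas Pdcd1 lies on chromosome 1. The 250 bases before each gene's start are shown because both ligands are known interferon targets and their transcripts are followed side by side below. They are from RefSeq, build GRCm38.p6, 5′ to 3′ on the gene's strand. The windows are chr1:94052554-94052803 on the minus strand for Pdcd1, chr19:29367188-29367437 on the plus strand for Cd274 and chr19:29410669-29410918 on the plus strand for Pdcd1lg2. The Cd274 window precedes the listed transcript start and lies within the annotated span of the gene, which begins farther upstream. Capitals mark a match to GAAANNGAA, a short form of the interferon response motif.
Pdcd1: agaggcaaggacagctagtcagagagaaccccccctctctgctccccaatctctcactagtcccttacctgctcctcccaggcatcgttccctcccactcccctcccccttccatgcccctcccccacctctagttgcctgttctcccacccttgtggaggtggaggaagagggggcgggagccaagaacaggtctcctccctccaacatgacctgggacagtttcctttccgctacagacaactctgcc
Cd274: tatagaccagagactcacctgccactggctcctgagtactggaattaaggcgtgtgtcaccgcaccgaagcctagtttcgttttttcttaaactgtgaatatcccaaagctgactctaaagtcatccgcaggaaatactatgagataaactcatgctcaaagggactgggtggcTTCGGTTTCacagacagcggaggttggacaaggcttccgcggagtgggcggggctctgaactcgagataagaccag
Pdcd1lg2: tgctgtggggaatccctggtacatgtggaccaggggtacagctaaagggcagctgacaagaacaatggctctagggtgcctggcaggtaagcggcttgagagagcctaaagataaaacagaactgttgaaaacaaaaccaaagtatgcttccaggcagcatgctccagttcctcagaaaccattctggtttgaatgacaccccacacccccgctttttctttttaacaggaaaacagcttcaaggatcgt
Cd274 held the motif once, on the strand opposite to the gene, from 76 to 68 bases before the start, and the windows of Pdcd1 and Pdcd1lg2 did not hold it on either strand. Of 32851 RefSeq windows of this length, 7.13% hold it. The same motif followed by 1 more A, which is found in 2.98% of windows, and the STAT motifs TTCNNNGAA (7.02%) and TTCCNGGAA (0.913%) had no match in these 3 windows on either strand. A match is a description of letters, not a site.

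Between 1669939 and 6995401 molecules were listed per section. Of these, 0.106 to 0.306% belonged to 28 targets named FP, taken here to be false-positive codes without a source that says so. Most FP molecules of each section were of 1 code, which had 3316 to 5348 of the 4827 to 7871 FP molecules per section. In every section, Cd274 exceeded all 28 codes, Pdcd1 exceeded at least 27 and Pdcd1lg2 at least 25. Levels are given as CPM, the gene's molecules scaled to a total of 1e+06 gene molecules, and are compared only within a gene, because the panel gives no basis for a scale per length. Bins with at least 20 molecules counted as tissue (2155 to 2405 per section) and were classed by the summed molecules of Mki67 and Birc5, both of them proliferation genes. Bins with fewer than 10 are called low, those with 10 to 99 intermediate, and those with 100 or more dense. Dense bins made up 1.01, 3.24, 0.983 and 1.499% of the tissue in the combination and CpG-STAT3ASO sections, against 37.2, 46.2, 32.2 and 44.8% in the anti-PD1 and PBS sections, so the treatments differ in the tissue that was sampled. The panel holds no defining gene of neurons, oligodendrocytes, astrocytes or GL261, so the tissue label could not be checked. The T cell identity genes tallied below are Cd3d, Cd8a and Foxp3. Cd4 is on the panel too but was not counted among them.

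Pdcd1, the receptor gene, was counted 1011 and 4136 times in the combination sections and 524 and 1508 times in the CpG-STAT3ASO sections. It was counted 2226 and 1537 times with anti-PD1 and 1803 and 2465 times with PBS. As levels these were 607 and 1054 CPM, 315 and 621 CPM, 335 and 242 CPM, and 430.4 and 353 CPM, in the same order. Ranked by mean, the groups ran from the combination (831 ± 316 CPM) through CpG-STAT3ASO (468 ± 217) and PBS (392 ± 54.9) to anti-PD1 (288 ± 66.0; SD, n = 2 each). The combination and CpG-STAT3ASO overlapped, as did CpG-STAT3ASO and PBS, while the lower PBS section stood above the higher anti-PD1 section. A low molecule count cannot tell fewer cells of a type from less RNA per cell, here or below.

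Cd274, the PD-L1 gene, was counted 14108 and 154040 times with the combination, 20176 and 41953 times with CpG-STAT3ASO, 116293 and 63040 times with anti-PD1, and 48597 and 94890 times with PBS. The levels were 8471 and 39266 CPM in the combination sections, 12119 and 17289 CPM with CpG-STAT3ASO, 17501 and 9909.5 CPM with anti-PD1, and 11599.6 and 13579.9 CPM with PBS. The combination sections held both the lowest and the highest value of the series, so the ranges of all 4 groups overlapped with theirs. The group means (23869 ± 21775, 14704 ± 3656, 13705 ± 5368 and 12589.8 ± 1400.3 CPM, SD, n = 2 each, in the same order) therefore have no order beyond their spread.

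Pdcd1lg2, the PD-L2 gene, was the rarest target of the 3, with 163 and 1259 molecules in the combination sections, 103 and 362 with CpG-STAT3ASO, 1114 and 511 with anti-PD1, and 782 and 2957 with PBS. Its levels were 97.9 and 321 CPM with the combination, 61.9 and 149 CPM with CpG-STAT3ASO, 168 and 80.3 CPM with anti-PD1, and 187 and 423 CPM with PBS. PBS stood highest by mean (305 ± 167 CPM), before the combination (209 ± 158), anti-PD1 (124 ± 61.7) and CpG-STAT3ASO (106 ± 61.7; SD, n = 2 each). Neighbours in this order overlapped, and the PBS sections lay above both CpG-STAT3ASO and both anti-PD1 sections.

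**Figure D1:**
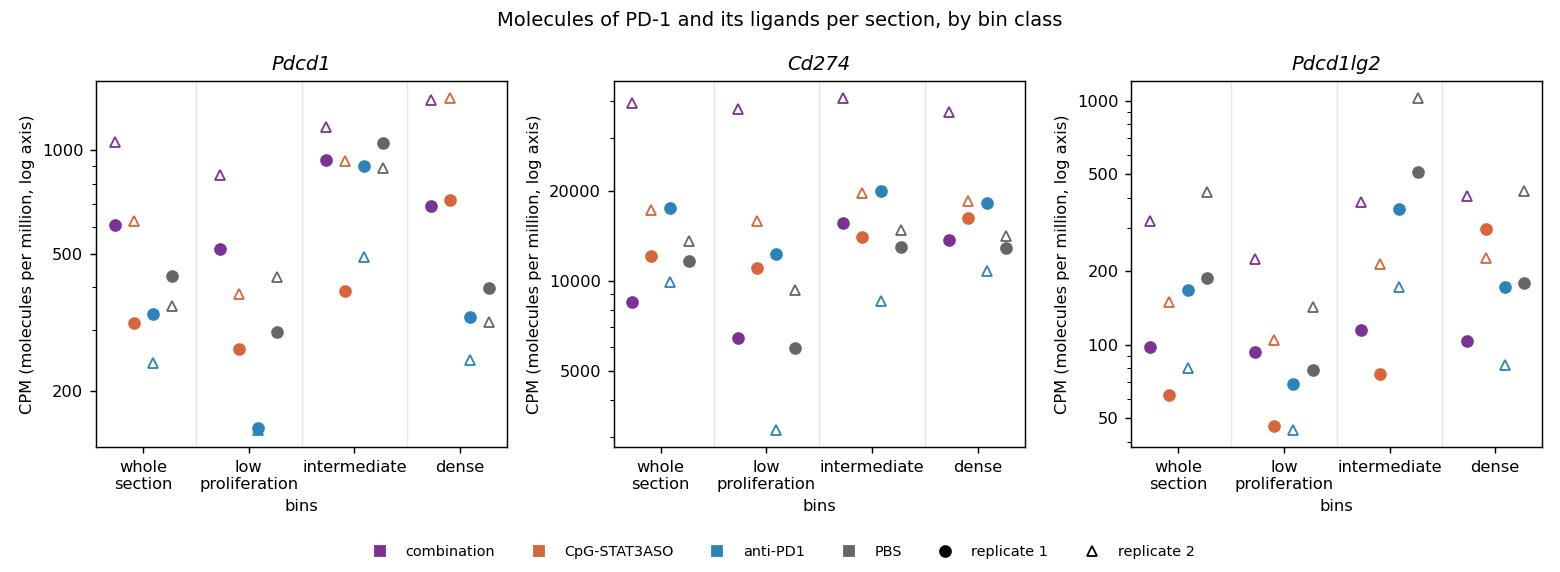
Level of Pdcd1, Cd274 and Pdcd1lg2 (CPM, log axis, a scale for each gene) in whole sections and in low, intermediate and dense bins. Each point is 1 section, coloured by treatment and shaped by replicate. The 4 sections with CpG-STAT3ASO lie above the other 4 for Pdcd1 in dense bins, where they hold few molecules, and combination replicate 2 has the highest Cd274 in every class.

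None of the 3 genes passed the limma test in whole sections for CpG-STAT3ASO averaged over anti-PD1, where 43% of 100 genes did. The log2 difference by CPM was 0.84 for Pdcd1 (SE 0.478, limma adjusted p = 0.185), 0.34 for Cd274 (SE 0.442, limma adjusted p = 0.575) and -0.47 for Pdcd1lg2 (SE 0.593, limma adjusted p = 0.568), against a median of 0.63 over all genes. Cd274 depended on combination replicate 1: without it, it stood at 0.89 and passed (limma adjusted p = 0.0434). Pdcd1lg2 differed by -1.54 for CpG-STAT3ASO against PBS (limma adjusted p = 0.195), where 25% of genes were called. It differed by -1.27 for anti-PD1 against PBS (limma adjusted p = 0.975), where 1% were. For anti-PD1 averaged over CpG-STAT3ASO, 0% of genes were called by limma, with 1 gene at an unadjusted p under 0.05, and Pdcd1lg2 stood at -0.20. The interaction of both agents was 2.15 for Pdcd1lg2 and 1.31 for Pdcd1 (limma adjusted p = 0.955 each), with 0% of genes called and 3 at an unadjusted p under 0.05. The sign of whole-section differences depended on the scaling, which moved the median of all genes from 0.63 by share of molecules to -0.04 by median-of-ratios factors and -0.77 per tissue bin. For CpG-STAT3ASO averaged over anti-PD1, Pdcd1 stood at 0.15 by median-of-ratios factors and -0.57 per tissue bin, and Cd274 at -0.34 and -1.08. Pdcd1lg2 was negative under each, at -1.14 and -1.86.

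The bin classes placed the molecules differently with and without CpG-STAT3ASO. Dense bins held 1.98 and 6.79% of the section's Pdcd1 molecules with the combination and 4.58 and 7.89% with CpG-STAT3ASO, against 80.3 and 88.0% with anti-PD1 and 68.8 and 76.3% with PBS. Low bins held 65.8, 32.3, 54.2 and 36.8% in the 4 sections with CpG-STAT3ASO and 6.02, 6.96, 12.3 and 12.9% in the 4 without. The groups did not overlap in either class, as the extent of the classes themselves did not in dense tissue. Per dense bin there were 0.909, 3.60, 1.04 and 3.61 Pdcd1 molecules with CpG-STAT3ASO and 2.16, 1.24, 1.74 and 1.95 without, and these ranges overlapped.

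Within sections the receptor was commonest in intermediate bins when no CpG-STAT3ASO was given. In low, intermediate and dense bins, Pdcd1 had 156, 901 and 328 CPM in anti-PD1 replicate 1 and 154, 491 and 246 CPM in replicate 2. The values were 296, 1049 and 398 CPM in PBS replicate 1 and 428, 891 and 316 CPM in replicate 2. In all 4 sections the intermediate bins stood highest, and the dense bins exceeded the low ones except in PBS replicate 2. In a limma fit with the section as block, Pdcd1 was lower in dense than in intermediate bins (log2 -1.33, SE 0.211, adjusted p = 0.00100), with 53.1% of 96 genes called and a median of -0.67. Per bin, 96.2% of the genes called were higher in dense bins, and Pdcd1 was higher than in intermediate bins, by 0.90 on the log2 scale. Against low bins, Pdcd1 in dense bins differed by 0.43 (SE 0.321, limma adjusted p = 0.311), where 54.2% of genes were called, and by 0.72 without PBS replicate 2 (limma adjusted p = 0.0488).

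Pdcd1lg2 had a like profile in these sections. Its levels in low, intermediate and dense bins were 68.8, 359 and 171 CPM in anti-PD1 replicate 1 and 44.5, 172 and 82.2 CPM in replicate 2. They were 79.0, 507 and 179 CPM in PBS replicate 1 and 143, 1028 and 428 CPM in replicate 2. Intermediate bins were highest and low bins lowest in each of the 4. The limma differences were -1.22 for dense against intermediate (SE 0.232, adjusted p = 0.00232) and 1.23 for dense against low bins (SE 0.280, adjusted p = 0.0109). The first was lost under median-of-ratios scaling (-0.48, adjusted p = 0.103) and with class limits of 5 and 50 (-0.73, adjusted p = 0.0893), and had the opposite sign per bin (1.01). The second was lost without PBS replicate 1 (1.25, limma adjusted p = 0.0613).

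For Cd274 the comparison of dense with intermediate bins depended on the scaling. In low, intermediate and dense bins it had 12299, 19981 and 18165.5 CPM in anti-PD1 replicate 1 and 3161, 8541 and 10802 CPM in replicate 2. It had 5934, 12916 and 12820.3 CPM in PBS replicate 1 and 9283, 14776 and 14055 CPM in replicate 2. The low bins were lowest in each section. Dense against intermediate bins gave 0.03 by CPM (SE 0.131, limma adjusted p = 0.844). Cd274 was called higher in dense bins by median-of-ratios scaling (0.77, limma adjusted p = 0.00486) and per bin (2.27, limma adjusted p = 1.94e-23). The limma fit pools the spread over all genes, so the last p does not measure the spread of Cd274 between these few sections. Dense against low bins gave 1.01 (SE 0.253, limma adjusted p = 0.0162), a call that was lost without PBS replicate 1 (0.98, limma adjusted p = 0.0725).

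Across all 8 sections, each of the 3 genes was higher in intermediate than in low bins, as were 49.5% of the 95 genes tested, with 65.3% called in all. The limma differences were 1.28 for Pdcd1 (SE 0.237, adjusted p = 0.000669), 0.75 for Cd274 (SE 0.169, adjusted p = 0.0021) and 1.57 for Pdcd1lg2 (SE 0.322, adjusted p = 0.00113), against a median of 0.61. Cd274 thus lay near the median gene, and it did not pass by median-of-ratios scaling (0.23, adjusted p = 0.26).

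Genes related to the receptor by role were tallied in the same contrast of dense with intermediate bins. All 4 measured inhibitory receptor and exhaustion genes were lower in dense bins, among them the checkpoint receptor genes Lag3 (-1.89) and Ctla4 (-1.17) and the exhaustion factor gene Tox (-2.72). All 3 T cell identity genes were lower too, with Cd8a at -1.46, Cd3d at -1.27 and Foxp3, the regulatory T cell factor gene, at -1.72. Of 6 genes for B7 family and costimulatory molecules, which act on the CD28 pathway that PD-1 dampens, 4 were lower, with Cd80 at -1.64 and Cd86 at -1.48. None of the 7 interferon and interferon target genes passed. All of these counts stand beside 47.9% of all genes that were lower in this contrast.

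Position was then resolved by distance from the edge of dense tissue in the 4 sections without CpG-STAT3ASO. The zones are the core (at least 4 bins inside), the edge (1 to 3 inside), the margin (1 to 3 outside), near tissue (4 to 9 outside) and distant tissue (at least 10 outside). Pdcd1 had 690 and 354 CPM in the margin with anti-PD1 and 942 and 765 CPM with PBS. Distant tissue held 126 and 74.6 CPM with anti-PD1 and 101 and 295 CPM with PBS. By CPM the margin exceeded every other zone in all 4 sections. Per bin it did not: Pdcd1 averaged 1.87 molecules in the core, 1.77 at the edge and 0.698 in the margin. Over the 4 sections Pdcd1 averaged 294 ± 82.7 CPM in the core, 328 ± 59.2 at the edge, 688 ± 246 in the margin, 337 ± 243 in near tissue and 149 ± 99.4 in distant tissue (SD, n = 4).

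Cd274 had 21355 and 6369 CPM in the margin with anti-PD1 and 13112 and 16727 CPM with PBS, against 5106 and 1815 CPM in distant tissue with anti-PD1 and 2391 and 5617 CPM with PBS. Its levels in core, edge and margin averaged 13041.5 ± 4222, 14033 ± 3230 and 14391 ± 6323 CPM, and differed by less than the spread between sections. From core to margin Cd274 fell from 11178 to 6369 CPM in anti-PD1 replicate 2 and rose from 7987 to 13112 CPM in PBS replicate 1. Per bin it averaged 85.5 molecules in the core, 78.2 at the edge and 15.3 in the margin. Pdcd1lg2 had 319 and 106 CPM in the margin with anti-PD1 and 382 and 991 CPM with PBS, against 38.7 and 93.3 CPM in distant tissue with anti-PD1 and 53.5 and 59.4 CPM with PBS. By CPM its margin was highest in each section, by little in anti-PD1 replicate 2. Per bin Pdcd1lg2 averaged 1.04 molecules in the core, 1.25 at the edge and 0.478 in the margin.

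Margin against distant tissue, each of the 3 genes was higher, as were 48.4% of the 93 genes tested, with 61.3% called. The limma differences were 2.32 for Pdcd1 (SE 0.410, adjusted p = 0.000761), 1.98 for Cd274 (SE 0.308, adjusted p = 0.000397) and 2.51 for Pdcd1lg2 (SE 0.603, adjusted p = 0.0044), against a median of 0.89. Class limits of 5 and 50 took Pdcd1lg2 out of the call (1.63, limma adjusted p = 0.0719). The 3 T cell identity genes were also higher in the margin (Cd3d 2.35, Foxp3 1.99, Cd8a 1.41), as were 4 of 6 effector genes, among them Nkg7 (3.69), Ifng (3.47) and the granzyme gene Gzmb (2.77). Of 6 interferons and their targets, 5 were higher, led by the chemokine genes Cxcl10 (5.20) and Cxcl9 (3.44). Among the other inhibitory genes, Ctla4 was higher (1.23), Tox was lower (-3.06), and Lag3 (-0.80) and Havcr2 (0.43) did not pass. Between dense edge and core no gene was called by limma (0%, with 10 at an unadjusted p under 0.05), and Pdcd1lg2 stood at 0.60.

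**Figure D2:**
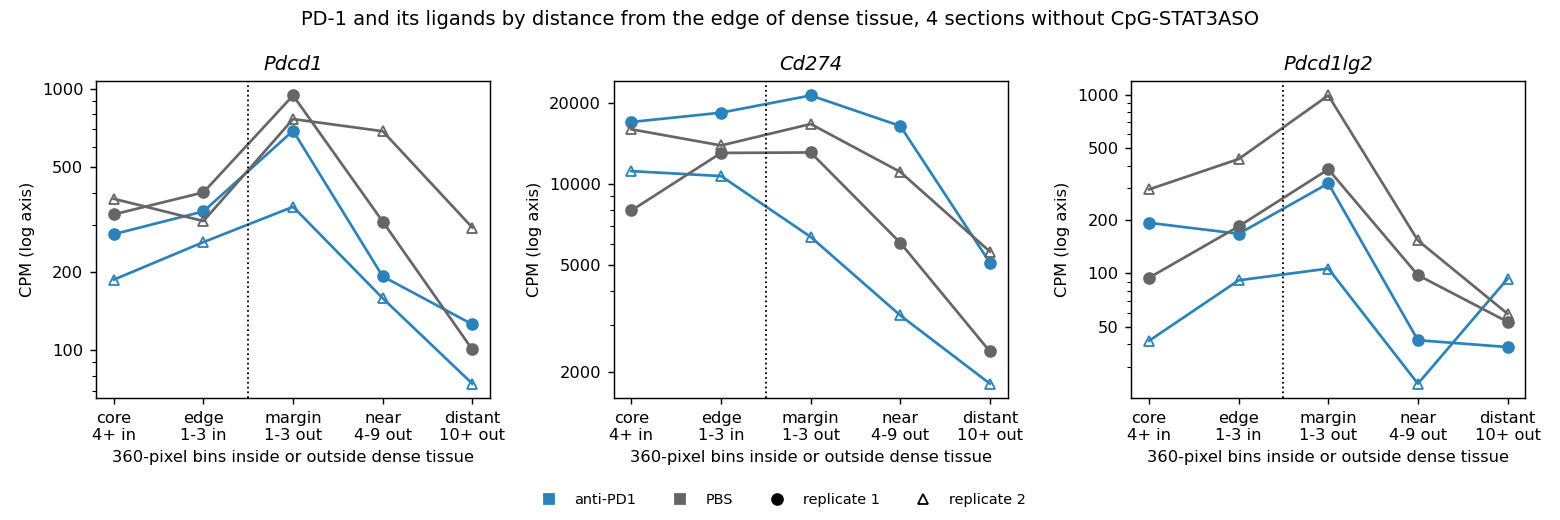
Level of each gene (CPM, log axis) by zone from the core of dense tissue to distant tissue in the 4 sections without CpG-STAT3ASO, 1 line per section; the dotted line marks the edge of dense tissue. By CPM, Pdcd1 and Pdcd1lg2 peak in the margin, and mean Cd274 is level from core to margin and lower in distant tissue. Per bin, each gene averages fewer molecules in the margin than in the core and at the edge.

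Treatments were next compared within 1 bin class. Whether the makeup of the tissue differs less there was not tested. Low bins made up 83.6, 50.9, 72.4 and 71.5% of the tissue in the combination and CpG-STAT3ASO sections. They made up 52.9, 46.2, 52.8 and 45.0% in the anti-PD1 and PBS sections. In low bins Pdcd1 had 516 and 849.6 CPM with the combination, 264 and 384 CPM with CpG-STAT3ASO, 156 and 154 CPM with anti-PD1, and 296 and 428 CPM with PBS. The combination sections were the highest of the series, the anti-PD1 sections were the lowest, and CpG-STAT3ASO and PBS overlapped. The combination exceeded anti-PD1 by 4.25-fold (log2 2.09, SE 0.528, limma adjusted p = 0.0493), where 10.4% of 96 genes were called and the median was 0.63. This call sits at the threshold. It was lost per bin (2.57, limma adjusted p = 0.0501), by median-of-ratios scaling (1.49, limma adjusted p = 0.158) and without any section other than combination replicate 1, with 1.73 and an adjusted p of 0.130 by limma without combination replicate 2.

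Cd8a and Ifng, the interferon gamma gene, were called in the same contrast (2.56 and 3.23, limma adjusted p = 0.0493 each). Of the T cell identity genes, 1 of 3 passed, with Cd3d at 2.29 (limma adjusted p = 0.108). Their summed level in low bins was 1181 and 3659 CPM with the combination and 518 and 332 CPM with anti-PD1, and none of the 3 was at 0 in any section. Of 9 myeloid genes 2 passed, the macrophage receptor gene Adgre1 (2.28) and the scavenger receptor gene Msr1 (3.25), and their sum was 77353 and 51106 CPM with the combination and 37723 and 43204 CPM with anti-PD1. The part of these cells in the Pdcd1 difference was not tested. The other inhibitory genes did not pass, with Ctla4 at 0.79, Havcr2 at 0.77, Lag3 at 0.48 and Tox at -0.43.

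For CpG-STAT3ASO averaged over anti-PD1 in low bins, Pdcd1 stood at 0.96 (SE 0.373, limma adjusted p = 0.143), Cd274 at 1.07 (adjusted p = 0.308) and Pdcd1lg2 at 0.38 (adjusted p = 0.644), where 9.38% of genes were called. Against PBS the combination gave 0.89 for Pdcd1 in low bins (limma adjusted p = 0.588), where 1.04% of genes were called. Cd274 in low bins had 6435 and 37368 CPM with the combination, 11022 and 15803 CPM with CpG-STAT3ASO, 12299 and 3161 CPM with anti-PD1, and 5934 and 9283 CPM with PBS. Without combination replicate 1 its average difference was 1.71 and passed (limma adjusted p = 0.0412). Pdcd1lg2 in low bins had 93.1 and 225 CPM with the combination, 46.5 and 104 CPM with CpG-STAT3ASO, 68.8 and 44.5 CPM with anti-PD1, and 79.0 and 143 CPM with PBS, and all 4 groups overlapped with at least 1 other.

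In intermediate bins Pdcd1 had 937 and 1172 CPM with the combination, 389 and 931 CPM with CpG-STAT3ASO, 901 and 491 CPM with anti-PD1, and 1049 and 891 CPM with PBS, and CpG-STAT3ASO averaged over anti-PD1 stood at -0.01 (SE 0.453). Pdcd1lg2 had 115 and 383 CPM with the combination, 75.7 and 214 CPM with CpG-STAT3ASO, 359 and 172 CPM with anti-PD1, and 507 and 1028 CPM with PBS. Both PBS sections lay above the other 6. The average difference for CpG-STAT3ASO was -1.37 (limma adjusted p = 0.194), with 4.3% of 93 genes called. Against PBS, Pdcd1lg2 differed by -1.78 in the combination and by -2.49 with CpG-STAT3ASO (limma adjusted p = 0.310 and 0.191), where 1.08% of genes were called in each contrast. For the combination against anti-PD1, 5.38% of genes were called and Pdcd1 stood at 0.65 (limma adjusted p = 0.747). In dense bins anti-PD1 against PBS gave -1.21 for Pdcd1lg2 (limma adjusted p = 0.984). No gene was called there by limma (0% of 96, with 4 at an unadjusted p under 0.05).

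In 3 of the 4 sections with CpG-STAT3ASO the receptor level was higher in dense than in intermediate bins, and in combination replicate 1 it was lower. Dense bins had 690.1, 1398, 717 and 1422 CPM of Pdcd1 with the combination and CpG-STAT3ASO (replicates 1 and 2 of each), on only 20, 281, 24 and 119 molecules. The log2 ratio of dense to intermediate bins was -0.44 and 0.25 with the combination and 0.88 and 0.61 with CpG-STAT3ASO, against -1.46 and -0.997 with anti-PD1 and -1.40 and -1.49 with PBS. The 2 sets of sections did not overlap. Their means differed by 1.66 (exact permutation p = 0.0286, two-sided and the lowest possible with 70 assignments, adjusted p = 0.0857 over 9 class ratios). The median of all genes for dense against intermediate bins was -0.67 without CpG-STAT3ASO. How many other panel genes separate the sections by such ratios was not counted, here or below.

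Pdcd1lg2 separated the sections too, although its dense bins had only 3, 82, 10 and 19 molecules in the 4 sections with CpG-STAT3ASO. Its dense to intermediate log2 ratio was -0.15 and 0.09 with the combination and 1.97 and 0.08 with CpG-STAT3ASO, against -1.06 and -1.06 with anti-PD1 and -1.50 and -1.26 with PBS (difference 1.72). Its intermediate to low log2 ratio was 0.30 and 0.77 with the combination and 0.69 and 1.03 with CpG-STAT3ASO, against 2.37 and 1.93 with anti-PD1 and 2.67 and 2.84 with PBS (difference -1.75). Both differences had an exact permutation p of 0.0286 and an adjusted p of 0.0857, without overlap between the sets. None of the 3 therefore passed the adjusted threshold, which a design of 4 against 4 sections cannot reach unless more ratios separate. Cd274 had no such separation, with differences of -0.09 for dense to intermediate and -0.47 for intermediate to low bins (exact permutation p = 0.486 and 0.2).

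The ligands were also counted per receptor molecule within each section. There were 0.161 and 0.304 Pdcd1lg2 molecules for each Pdcd1 molecule with the combination and 0.197 and 0.240 with CpG-STAT3ASO, against 0.5004 and 0.332 with anti-PD1 and 0.434 and 1.20 with PBS. All 4 sections with CpG-STAT3ASO were lower than all 4 others. The mean log2 ratio was -2.19 ± 0.39 with and -0.88 ± 0.80 without it (SD, n = 4 each; difference -1.31, exact two-sided permutation p = 0.0286, adjusted p = 0.0571 over 2 ratios). Within intermediate bins alone the difference was -1.36 (exact permutation p = 0.0286, adjusted p = 0.0857 over 6 ratios). Within low bins it was -0.58 (exact permutation p = 0.0571). Pdcd1lg2 was counted less often than the mean FP code in combination replicate 1 (163 against 172) and CpG-STAT3ASO replicate 1 (103 against 182). The median FP code there had 11 and 9.5 molecules. With the FP level subtracted, the Pdcd1lg2 ratio had no value in these sections and its difference was not tested. Cd274 per Pdcd1 molecule was 14.0 and 37.2 with the combination and 38.5 and 27.8 with CpG-STAT3ASO, against 52.2 and 41.0 with anti-PD1 and 27.0 and 38.5 with PBS (log2 difference -0.50, exact permutation p = 0.257). Within dense bins all 4 sections with CpG-STAT3ASO were lower than the other 4 (-1.13, exact permutation p = 0.0286, adjusted p = 0.0857), while intermediate bins gave 0.62 (exact permutation p = 0.171) and low bins 0.10 (exact permutation p = 0.743).

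Bins with both receptor and ligand molecules were counted next. Pdcd1 was present in 20.6, 45.2, 12.2 and 26.4% of the tissue bins of the combination and CpG-STAT3ASO sections and in 27.6, 22.9, 27.0 and 31.4% of those of the anti-PD1 and PBS sections. Of the bins with Pdcd1, 91.7 to 99.9% also held Cd274, which was present in 83.8 to 99.6% of all tissue bins. Pdcd1lg2 was present in 10.7 and 32.2% of the Pdcd1 bins with the combination and 4.90 and 22.4% with CpG-STAT3ASO, against 43.4 and 23.8% with anti-PD1 and 31.8 and 58.0% with PBS. In each section this was more than its share of all tissue bins, which ran from 3.50% in CpG-STAT3ASO replicate 1 to 40.1% in PBS replicate 2. Molecule-rich bins hold more of every target, and that part was not tested here.

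**Figure D3:**
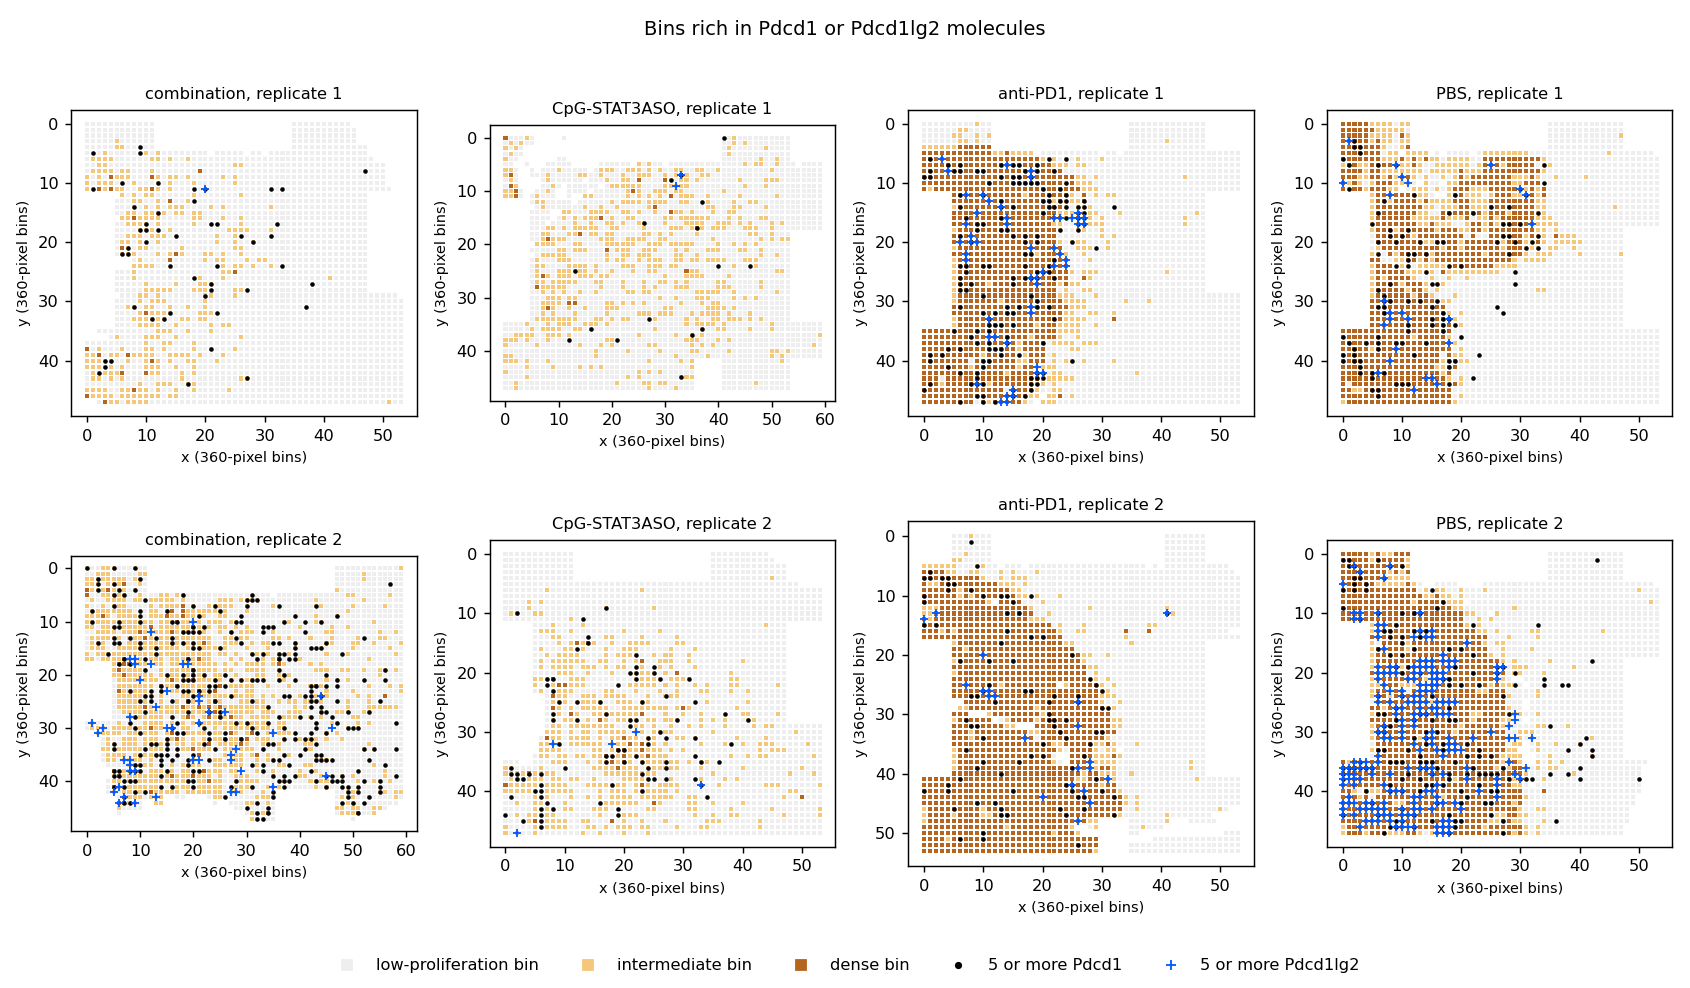
Tissue bins of each section (axes in bins of 360 pixels) shaded by class, with dots where a bin holds 5 or more Pdcd1 molecules and crosses where it holds 5 or more Pdcd1lg2 molecules. Such Pdcd1 bins number 51, 336, 16 and 90 in the combination and CpG-STAT3ASO sections and 167, 98, 116 and 187 in the anti-PD1 and PBS sections, and 221 bins of PBS replicate 2 are rich in Pdcd1lg2.

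Distances were measured from each Pdcd1 molecule to the nearest molecule of a target in the plane of the section, in pixels because no pixel size is given, and set against the same distance from every 20th panel molecule. Cd8a, which marks cytotoxic T cells, lay at a median of 230.3 and 8.25 pixels from Pdcd1 with the combination and 287 and 172 with CpG-STAT3ASO, and at 67.5 and 20.8 with anti-PD1 and 176 and 284 with PBS. From panel molecules the medians were 350.5 and 156, 394 and 275, 186 and 244, and 257 and 358 pixels, in the same order. Pdcd1 was the closer in all 8 sections, by far the most in combination replicate 2 and anti-PD1 replicate 2. The mean log2 ratio was -1.49 ± 1.54 (SD, n = 8, exact two-sided sign-flip permutation p = 0.0078125, the smallest that 256 assignments allow, adjusted p = 0.0156 over 6 targets). The share of Pdcd1 molecules within 100 pixels of Cd8a was 33.3, 81.1, 20.6 and 32.2% with CpG-STAT3ASO and 56.96, 64.2, 36.9 and 21.7% without, against 9.14, 29.8, 6.46 and 13.6% of panel molecules with CpG-STAT3ASO and 22.7, 14.5, 13.4 and 7.42% without. Within low bins alone the log2 distance ratio of Cd8a was below 0 in 7 of 8 sections and 0.07 in anti-PD1 replicate 1.

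Cd3d, a subunit of the T cell receptor complex, was at a median of 320.1, 175, 599 and 214 pixels from Pdcd1 in the combination and CpG-STAT3ASO sections and 144, 267, 322 and 173 pixels in the anti-PD1 and PBS sections. Ifng was at 592, 124, 789.7 and 391 pixels and 145, 249.7, 338 and 98.0 pixels in the same order. Both were closer to Pdcd1 than to panel molecules in 8 of 8 sections, with mean log2 ratios of -0.93 ± 0.21 for Cd3d and -0.84 ± 0.42 for Ifng (SD, n = 8, exact sign-flip permutation, adjusted p = 0.0156 each). Against panel molecules of the same bins, Cd8a stayed closer in 8 of 8 sections (-0.99 ± 1.43, SD, n = 8, adjusted p = 0.0234 by the same exact permutation). The ratio was -3.66 in combination replicate 2, -2.81 in anti-PD1 replicate 2 and -0.93 in anti-PD1 replicate 1. In the other sections it lay only between -0.16 and -0.03. Cd3d was closer in 7 of 8 sections (-0.22, adjusted p = 0.0313 by the same exact permutation). Ifng did not pass there (-0.28, adjusted p = 0.0586, closer in 7 of 8 sections).

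The ligands were measured in the same way. Cd274 molecules lay at a median of 44.7, 26.0, 39.0 and 34.2 pixels from Pdcd1 with CpG-STAT3ASO and 22.1, 28.3, 29.97 and 26.9 pixels without. From panel molecules these were 75.2, 20.2, 58.5 and 42.0 pixels and 18.8, 28.2, 29.4 and 21.4 pixels. Cd274 was closer to Pdcd1 in only 3 of 8 sections, CpG-STAT3ASO replicates 1 and 2 and combination replicate 1 (mean log2 ratio -0.08 ± 0.42, SD, n = 8, exact sign-flip permutation, adjusted p = 0.609). This depended on what it was set against. With FP molecules in place of panel molecules the mean was -0.62, and within low bins only it was -0.36. Both passed (adjusted p = 0.0234 and 0.0352 by the same exact permutation). The FP molecules of a section are mostly those of 1 code, so they are largely the positions of that code. As a share of molecules within 100 pixels of Cd274, Pdcd1 exceeded panel molecules in 8 of 8 sections, by a mean log2 ratio of only 0.11 (adjusted p = 0.0094 by the same exact permutation). Pdcd1lg2 lay at 508, 288, 907 and 346 pixels with CpG-STAT3ASO and at 175, 330.2, 238 and 131 pixels without. It was closer to Pdcd1 than to panel molecules in 7 of 8 sections (-0.26 ± 0.18, SD, n = 8, exact sign-flip permutation, adjusted p = 0.0234), but not against molecules of the same bins (-0.01, adjusted p = 0.477).

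Myeloid molecules (Adgre1, Cd68 and Cd14 pooled) lay at 25.9 to 49.0 pixels from Pdcd1. Their mean log2 ratio was -0.05 (exact sign-flip permutation, adjusted p = 0.609), and -0.34 against FP molecules (adjusted p = 0.0188 by the same exact permutation). Against molecules of the same bins they were farther from Pdcd1 in 8 of 8 sections, by 0.10 (adjusted p = 0.0234 by the same exact permutation). No distance ratio differed with against without CpG-STAT3ASO or anti-PD1 after adjustment over the 6 targets. For anti-PD1 the Cd8a ratio differed by -1.96 (exact permutation p = 0.0571, adjusted p = 0.343).

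**Figure D4:**
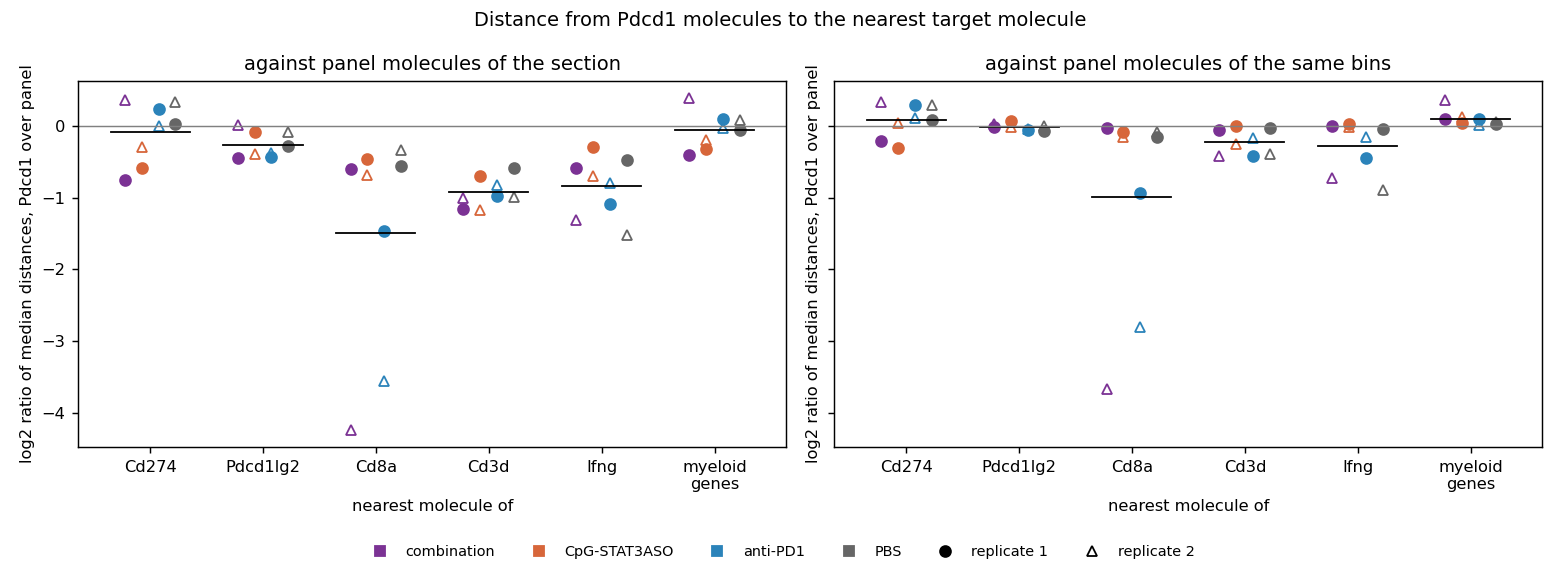
Log2 ratio of the median distance from Pdcd1 molecules to the nearest molecule of each target over that from panel molecules of the whole section (left) or of the same bins (right). Each point is 1 section and each bar the mean of 8; below 0, Pdcd1 is the closer. Cd8a is below 0 in every section of both panels, at -4.24 in combination replicate 2 on the left, and Cd274 lies on both sides of 0. On the right, most Cd8a points lie between -0.16 and -0.03.

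The surroundings of each gene's molecules were described as a log2 density ratio, molecules within 100 pixels over those in a ring of 400 to 600 pixels. Around Pdcd1 the densest gene was Pdcd1 itself (3.56 ± 0.71, SD, n = 8), followed by Ifng (3.16 ± 0.87), Cd3d (2.99 ± 0.79), the cytotoxic granule gene Nkg7 (2.96 ± 0.73), Cd8a (2.91 ± 0.60), the NK receptor gene Klrc1 (2.86 ± 0.76) and Ctla4 (2.77 ± 0.62). The median of all genes was 0.86. Foxp3 stood at 2.22, Lag3 at 1.47, Cd4 at 1.38 and Tox at 1.01, so the other inhibitory genes ranged from near the top to close to the median. Pdcd1lg2 was at 1.21 ± 0.70, rank 35 of 100, and above the section's median gene in 6 of 8 sections. Cd274 was at 0.38 ± 0.35, rank 83, and below the section's median gene in all 8. The macrophage genes Adgre1 (0.44) and Cd68 (0.40) were as low.

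Around Cd274 the contrast was flat. Cd274 itself reached 1.17 ± 0.37 and the median gene 0.40, with Cxcl10 next (0.86 ± 0.31), a chemokine gene that interferon induces like Cd274. Pdcd1lg2 ranked 8 of 100 (0.72 ± 0.49) and exceeded the section's median gene in 8 of 8 sections, and Pdcd1 ranked 61 (0.39 ± 0.36). Around Pdcd1lg2 the leading genes included Il12b (2.95 ± 0.55), which encodes the p40 subunit of IL-12, Pdcd1lg2 itself (2.92 ± 0.84), the migration receptor gene Ccr7 (2.79 ± 0.54) and the chemokine gene Ccl22 (2.001 ± 0.59). Il12b, Ccr7 and Ccl22 are known from mature dendritic cells. Each exceeded the section's median gene in 8 of 8 sections, and all of them ranked within the first 5 at radii of 50 and 200 pixels too. Pdcd1 ranked 16 (1.21 ± 0.70) and Cd274 48 (0.70 ± 0.47). A pair of genes gives the same molecule pairs from either side. Ratios among Pdcd1, Cd274 and Pdcd1lg2 thus repeat each other by construction, apart from the limit of 6000 molecules. Around molecules of the FP codes the median gene was at 0.25 and the highest at 1.02.

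**Figure D5:**
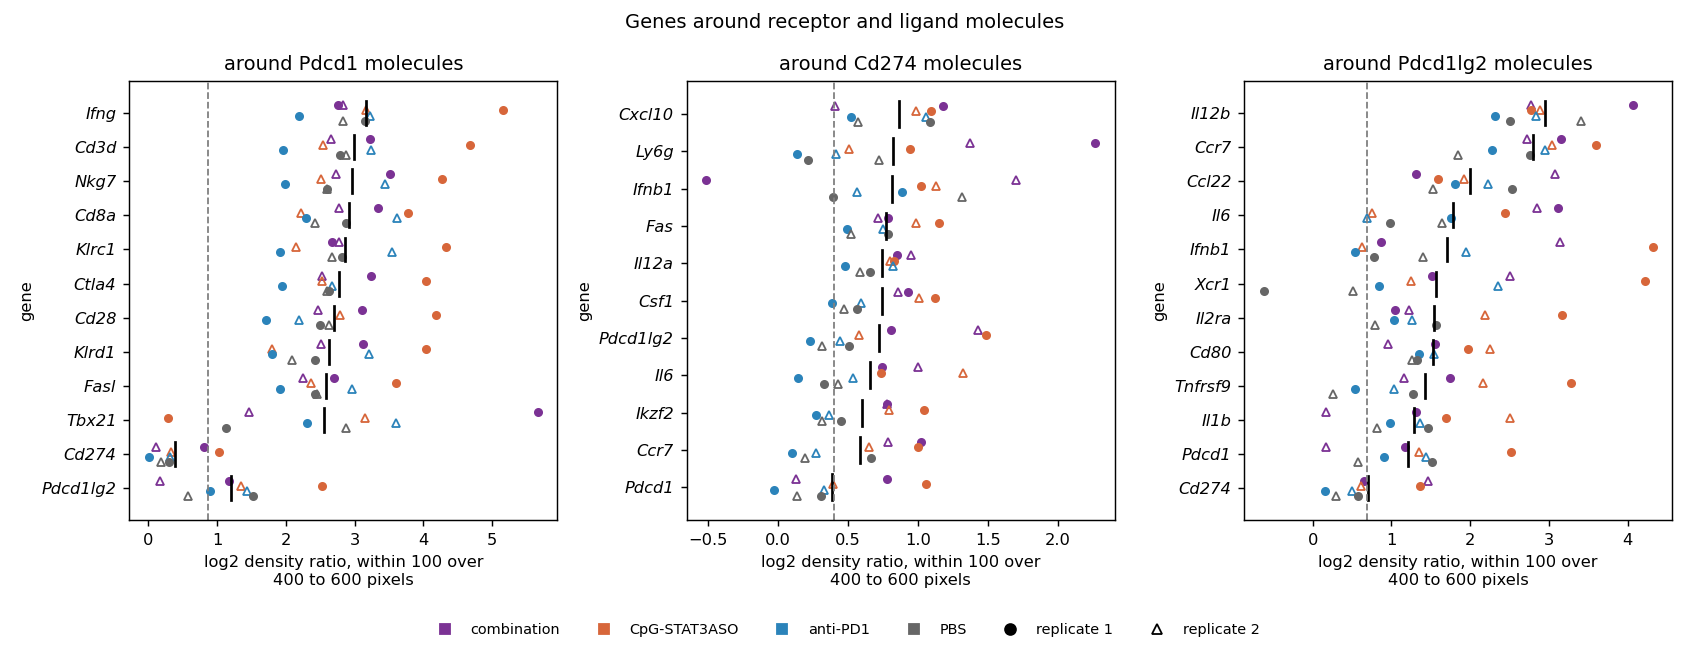
Log2 density ratio of genes around Pdcd1, Cd274 and Pdcd1lg2 molecules, leaving out the gene itself: 10 of the highest by mean, then the other genes of the trio. Points are sections, black bars means of 8, and the dashed line the median of all genes. T cell genes lead around Pdcd1 and Il12b and Ccr7 around Pdcd1lg2, and Cd274 lies under the dashed line around Pdcd1.

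Pdcd1 molecules were clumped, and groups of at least 3 molecules linked at 50 pixels are called foci. There were 96 and 545 foci with the combination, 39 and 146 with CpG-STAT3ASO, 271 and 176 with anti-PD1, and 196 and 308 with PBS. They held 48.0, 70.2, 35.1 and 48.9% of the Pdcd1 molecules in the sections with CpG-STAT3ASO and 61.7, 58.9, 56.5 and 68.2% in those without, in the same order. The median focus had 4 or 5 molecules and the largest 13 to 27. Dense bins held 3.13, 7.16, 5.13 and 8.90% of the foci with CpG-STAT3ASO and 84.9, 93.8, 73.5 and 80.2% without (difference -77.0 points, exact permutation p = 0.0286, adjusted p = 0.152 over 16 quantities).

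In 6 of 8 sections most foci had a Cd8a or Cd3d molecule close by. A Cd8a or Cd3d molecule lay within 50 pixels of 60.4 and 89.7% of foci with the combination, 41.0 and 57.5% with CpG-STAT3ASO, 72.3 and 78.4% with anti-PD1, and 51.0 and 47.4% with PBS. The 4 sections given anti-PD1, alone or combined, were the 4 highest, with a difference of 26.0 points (exact permutation p = 0.0286, adjusted p = 0.457 over 16 quantities). Cd274 was within 50 pixels of 74.0 to 97.4% of foci, and a molecule of Adgre1, Cd68 or Cd14 of 70.5 to 87.8%. Pdcd1lg2 was that close to 5.21 and 7.16% with the combination and 7.69 and 12.3% with CpG-STAT3ASO, against 15.1 and 10.8% with anti-PD1 and 14.8 and 26.3% with PBS. Lag3, another inhibitory receptor gene, was close to 38.5 to 69.5% of foci, Ifng to 17.7 to 48.1% and Foxp3 to 5.32 to 23.0%. A focus was counted if any of its molecules had the target within 50 pixels. No such share was computed for panel molecules or other positions. How much of these shares the abundance of a target gives by itself was thus not tested.

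Over the 8 sections, the genes whose whole-section levels ran most like Pdcd1 were the death ligand gene Fasl (Pearson r = 0.91), Klrc1 (0.89) and the cytokine gene Tnf (0.89). For Cd274 they included Nkg7 (0.96) and the secreted matrix protein gene Tgfbi (0.92), and for Pdcd1lg2 they were Gzmb (0.85), Ifng (0.83) and the granzyme gene Gzmc (0.83). Among themselves the correlations were 0.64 for Pdcd1 and Cd274, 0.42 for Pdcd1 and Pdcd1lg2, and 0.59 for Cd274 and Pdcd1lg2. Il12b, Ccr7 and Ccl22, which were dense around Pdcd1lg2 molecules, did not run with it in level (r = -0.28, -0.34 and -0.34). These values describe 8 sections that share treatments and the total each level is scaled to, and combination replicate 2 is high in most of them.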

How the data were processed

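Molecules of a 100-gene panel were measured in 8 sections by Resolve single-molecule in situ hybridization. The tables deposited by the authors hold the x, y and z position (x and y taken as pixels, of a size not given) and the target of each molecule in 4 columns. How spots were decoded and filtered is not given in the sources used here, and the submitters' processing notes list Seurat 4.2.0 without saying where it was used. All deposited molecules were used. Treatments were taken from the labels, with 2 sections each, and depth is the molecule total per section. The 3 genes, the gene lists and the tests were chosen with earlier results of these data known. Genes named beside them are members of those lists, the 3 most like in level and those densest around their molecules, and others named were chosen after their values were seen. Some genes these rules pick are not reported here.

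Molecules were counted per gene in 360-pixel bins, FP codes left out of totals. Differences were tested on log2(CPM + 1) with limma 3.58.1 in R 4.3.3 (lmFit, eBayes with trend, all groups sharing the spread) for genes averaging 10 molecules or more, and adjusted over all genes tested by Benjamini-Hochberg at 0.05. Comparisons between bin classes or zones had the section as block. The added 1 understates changes of rare targets. Distances, ratios and foci were computed in Python 3.11.15 (scipy 1.17.1) and compared over sections by exact two-sided permutation. Density ratios had 0.5 added to both counts and used up to 6000 molecules a section. On simulated tables with 100 genes, limma recovered 17.9% of 2-fold, 70% of 4-fold and 93.6% of 8-fold changes, with 1.14% false calls. These tables had the molecule totals and the spread of the whole sections, but their genes varied independently. They also had no shift of the median gene, which the whole sections have, so these shares need not hold there. The alternatives were other bin sizes, class limits, scalings, filters, pseudocounts, models and distance references, and leaving out each section.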

Additional observations from a re-analysis of the deposited data

Results flagged for a closer look

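In combination replicate 2 the log2 ratio of the Pdcd1 distance to Cd8a over that of panel molecules was -4.24, far from the other 3 sections with CpG-STAT3ASO, which lay between -0.68 and -0.46. Among the sections without CpG-STAT3ASO, anti-PD1 replicate 2 stood at -3.55 and anti-PD1 replicate 1 at -1.46. The gap took up 0.94 of the range. The limit for 4 sections was a gap of 0.829 of the range, which chance exceeds in about 1 in 20 groups. As 40 groups of sections were looked at, some are flagged by chance alone.

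The log2 ratio of dense to intermediate bins differed by 1.66 for Pdcd1 and by 1.72 for Pdcd1lg2 between sections with and without CpG-STAT3ASO, and the ratio of intermediate to low bins of Pdcd1lg2 differed by -1.75. Each had an exact permutation p of 0.0286 and an adjusted p of 0.0857, and the dense bins with CpG-STAT3ASO hold few molecules. The cause of these differences was not tested, and how many other panel genes differ in this way was not counted.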

How the results depend on the processing

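Of the differences of Pdcd1, Cd274 and Pdcd1lg2 recomputed with all sections under other settings, 688 kept their direction and their side of the threshold, 45 changed sign, 10 lost the call and 4 gained it. Leaving out a section in turn kept 382, changed the sign of 47, and took the call from 9 and gave it to 6. The lone section of a group that lost its replicate is assumed to vary like the other groups. The replicate numbers did not pair the sections: the correlation of same-numbered deviations ran from -0.53 to 0.59 over the 6 pairs of groups. With the replicate number as a block, 1 gene was called for anti-PD1 averaged over CpG-STAT3ASO in whole sections and Pdcd1 in low bins lost its call for the combination against anti-PD1 (2.09). Low counts limit the precision, with 3 to 82 Pdcd1lg2 molecules in dense bins with CpG-STAT3ASO. The cause of the changes below was not tested.

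With molecules per tissue bin, for the average CpG-STAT3ASO contrast in whole sections Pdcd1 was -0.57 and Cd274 was -1.08, for the average anti-PD1 contrast in whole sections Pdcd1lg2 was 0.0649, and for combination against PBS in whole sections 4 genes were called, Pdcd1 was -0.11 and Cd274 was -0.61. For CpG-STAT3ASO against PBS in whole sections 12 genes were called, Pdcd1 was -1.29 and Cd274 was -1.28, for anti-PD1 against PBS in whole sections 0 genes were called, and for combination against anti-PD1 in whole sections 14 genes were called, Cd274 was -0.87 and Pdcd1lg2 was -0.72. For the average CpG-STAT3ASO contrast in low bins 16 genes were called, for the average anti-PD1 contrast in low bins Pdcd1 was 0.0745 and Cd274 was 0.13, and for combination against PBS in low bins 4 genes were called. For the average CpG-STAT3ASO contrast in intermediate bins Pdcd1 was 0.14, in dense bins for anti-PD1 against PBS 1 gene was called, and for dense against low bins 91 genes were called and Pdcd1 was 3.40 (adjusted p 2.39e-05). For dense against intermediate bins Pdcd1 was 0.90 and Pdcd1lg2 was 1.01, and for dense edge against dense core Pdcd1 was -0.0401 and Cd274 was -0.0895. With median-of-ratios scaling, for the average CpG-STAT3ASO contrast in whole sections Cd274 was -0.34, for combination against PBS in whole sections 11 genes were called and Cd274 was -0.14, and for CpG-STAT3ASO against PBS in whole sections 13 genes were called, Pdcd1 was -0.49 and Cd274 was -0.47. For combination against anti-PD1 in whole sections 13 genes were called, Cd274 was -0.22 and Pdcd1lg2 was -0.0778, for the average CpG-STAT3ASO contrast in low bins 3 genes were called and Pdcd1lg2 was -0.0418, and for the average anti-PD1 contrast in low bins Pdcd1 was 0.10 and Cd274 was 0.16. For combination against PBS in low bins 0 genes were called, for combination against PBS in intermediate bins Pdcd1 was -0.088, and in dense bins for anti-PD1 against PBS Cd274 was -0.047. For dense edge against dense core Cd274 was -0.0221, and for intermediate against low bins Cd274 was 0.23 (adjusted p 0.26). With the FP level subtracted, for CpG-STAT3ASO against PBS in whole sections 13 genes were called and Pdcd1 was -0.0308. For anti-PD1 against PBS in whole sections 0 genes were called, and for combination against anti-PD1 17 genes were called and Pdcd1lg2 was -2.08. Counts below the mean FP code were set to 0 in this setting, among them Pdcd1lg2 in combination replicate 1 (163 molecules against 172). For the average CpG-STAT3ASO contrast in low bins 15 genes were called and Pdcd1 was 2.17 (adjusted p 0.0484), and for the average anti-PD1 contrast in intermediate bins Pdcd1lg2 was 0.65. With FP molecules in place of panel molecules, the distance ratio was -0.62 (adjusted p 0.0234) for Cd274 and -0.34 (adjusted p 0.0187) for myeloid genes, and the CpG-STAT3ASO difference in distance ratio was 0.11 for Cd8a and 0.16 for Cd3d. Within low bins only, the distance ratio was -0.36 (adjusted p 0.0352) for Cd274, the CpG-STAT3ASO difference in distance ratio was 0.14 for Cd274, -0.0943 for Pdcd1lg2, -0.15 for Ifng and 0.11 for myeloid genes, and the CpG-STAT3ASO difference in log2 ligand per Pdcd1 was 0.10 for Cd274 and -0.58 (exact permutation p 0.0571) for Pdcd1lg2. With limma voom, for the average CpG-STAT3ASO contrast in intermediate bins Pdcd1 was 0.0398, for combination against PBS in intermediate bins 0 genes were called, and for dense against intermediate bins Cd274 was -0.00575. With eBayes without a trend, for anti-PD1 against PBS in whole sections 0 genes were called, and for combination against PBS in intermediate bins 0 genes were called. Against panel molecules of the same bins, the distance ratio was 0.083 for Cd274, -0.0119 (adjusted p 0.477) for Pdcd1lg2, -0.28 (adjusted p 0.0586) for Ifng and 0.10 for myeloid genes, and the CpG-STAT3ASO difference in distance ratio was 0.0123 for Cd8a, 0.0757 for Cd3d and 0.11 for myeloid genes. With the log2 ratio of shares within 100 pixels, the distance ratio was 0.11 (adjusted p 0.00937) for Cd274, and the CpG-STAT3ASO difference in distance ratio was 0.24 for Pdcd1lg2, -0.0625 for Cd8a and 0.57 for Ifng. With x, y and z distances, the CpG-STAT3ASO difference in distance ratio was 0.013 for Cd8a. With a mean of at least 50 molecules, for anti-PD1 against PBS in whole sections 0 genes were called. With 180-pixel bins, for the average anti-PD1 contrast in low bins Pdcd1lg2 was -0.00871, for combination against PBS in low bins 0 genes were called, and for the average CpG-STAT3ASO contrast in intermediate bins 20 genes were called and Pdcd1 was 0.22. For combination against PBS in intermediate bins 6 genes were called, and for dense against intermediate bins Cd274 was -0.0391. With 720-pixel bins, for the average CpG-STAT3ASO contrast in intermediate bins Pdcd1 was 0.0776, for dense against intermediate bins Cd274 was -0.0262, and for dense edge against dense core Cd274 was -0.0469. With class limits of 5 and 50, for the average anti-PD1 contrast in low bins Cd274 was 0.0125, for combination against PBS in low bins 0 genes were called, and for the average CpG-STAT3ASO contrast in intermediate bins Pdcd1 was 0.0917. For combination against PBS in intermediate bins 0 genes were called, and for margin against distant tissue Pdcd1lg2 was 1.63 (adjusted p 0.0719). With class limits of 20 and 200, for the average anti-PD1 contrast in low bins Cd274 was 0.0151 and Pdcd1lg2 was -0.10, for the average CpG-STAT3ASO contrast in intermediate bins 27 genes were called and Pdcd1 was 0.50, and for combination against PBS in intermediate bins 18 genes were called. For dense against intermediate bins Cd274 was -0.0446. With a pseudocount of 10, for anti-PD1 against PBS in whole sections 0 genes were called.

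Leaving out 1 section at a time, for dense against intermediate bins Cd274 was -0.0734 to 0.0853, for dense against low bins Cd274 was 0.76 to 1.16, Pdcd1 was 0.22 to 0.72 and Pdcd1lg2 was 1.12 to 1.35, and in dense bins for anti-PD1 against PBS Cd274 was -0.31 to 0.44 and 0 to 2 genes were called. For dense edge against dense core Cd274 was -0.0483 to 0.25, for the average anti-PD1 contrast in intermediate bins Cd274 was -0.0844 to 0.61, Pdcd1 was -0.18 to 0.44 and Pdcd1lg2 was -0.84 to 0.0222, and for the average CpG-STAT3ASO contrast in low bins Cd274 was 0.44 to 1.71 and 3 to 20 genes were called. For the average anti-PD1 contrast in low bins Cd274 was -0.64 to 0.63, Pdcd1 was -0.25 to 0.11, Pdcd1lg2 was -0.26 to 0.37 and 0 to 1 gene was called, for combination against PBS in low bins Cd274 was -0.21 to 2.33, Pdcd1lg2 was -0.19 to 1.07 and 0 to 2 genes were called, and for CpG-STAT3ASO against PBS in whole sections Cd274 was -0.0505 to 0.46, Pdcd1 was -0.31 to 0.67 and 5 to 33 genes were called. For the average CpG-STAT3ASO contrast in whole sections Cd274 was -0.22 to 0.89, for anti-PD1 against PBS in whole sections Cd274 was -0.34 to 0.48 and 0 to 1 gene was called, and for the average anti-PD1 contrast in whole sections Cd274 was -0.35 to 0.75, Pdcd1 was -0.0442 to 0.45, Pdcd1lg2 was -0.62 to 0.23 and 0 to 1 gene was called. For combination against CpG-STAT3ASO in whole sections Cd274 was -0.77 to 1.44 and 0 to 1 gene was called, for combination against PBS in whole sections Cd274 was -0.57 to 1.65, Pdcd1lg2 was -1.51 to 0.19 and 6 to 31 genes were called, and for combination against anti-PD1 in whole sections Cd274 was -0.64 to 1.58, Pdcd1lg2 was -0.24 to 1.46 and 9 to 34 genes were called. For the interaction in whole sections Cd274 was -0.84 to 1.37 and 0 to 2 genes were called, for the average CpG-STAT3ASO contrast in intermediate bins Pdcd1 was -0.33 to 0.30 and 2 to 10 genes were called, and for combination against PBS in intermediate bins Pdcd1 was -0.045 to 0.28 and 0 to 3 genes were called. The distance ratio was -0.15 to 0.0102 for Cd274, the CpG-STAT3ASO difference in distance ratio was -0.72 to 0.89 for Cd8a and -0.0119 to 0.14 for Pdcd1lg2, and the CpG-STAT3ASO difference in log2 ligand per Pdcd1 was -1.54 to -0.92 for Pdcd1lg2.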

Other observations

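Around Pdcd1lg2 molecules the cytokine gene Il6 had a log2 density ratio of 1.78 and the dendritic cell chemokine receptor gene Xcr1 ranked 8, while Gpnmb, a gene of lipid-laden macrophages, was lowest of all at 0.009. Around Cd274 the lowest was Cd4 (0.017), and Fas, the death receptor gene, stood at 0.77. Around Pdcd1 the lowest was the interferon gene Ifna2 (0.018). In PBS replicate 2, 221 bins held 5 or more Pdcd1lg2 molecules, and 49 of these held 5 or more Pdcd1 molecules too. No cause was tested for these values.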
